A study of Mus musculus with 6 samples.

Results

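Amino acid transporters of the solute carrier families Slc1, Slc3, Slc6, Slc7, Slc36, Slc38 and Slc43 were followed in the livers of mice lacking Igfbp7. All genes whose symbol begins with one of these 7 family names followed by the letter a and a number were taken, which gave 62 of the 22609 genes listed. Of the 62, 61 are transporter genes or their partner subunits. The remaining gene, Slc7a6os, carries a transporter's name only because it lies beside Slc7a6, and it is given apart. RNA sequencing was done on 3 liver samples of Igfbp7 knockout mice, in which the gene was deleted with Cre and loxP on a pure C57BL/6 background, and on 3 liver samples of C57BL/6 wild type mice. All were adult and none is labelled as treated. The labels name no cell type or promoter that drove Cre, no age in weeks, sex, feeding state or hour of collection, and they do not say whether the samples were separate animals. The p-values below therefore measure the spread between these samples, which may be technical.

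Igfbp7 encodes a secreted protein that binds insulin-like growth factors. Hepatocytes take up most of the amino acids that reach the liver in portal blood, use them for protein, glucose and urea synthesis, and release glutamine. Slc38 members carry small neutral amino acids and glutamine with sodium, Slc7a2 carries arginine and lysine, and Slc1 members carry glutamate or small neutral amino acids. Slc7 light chains reach the cell surface joined to an Slc3 heavy chain. Several members are also targets of ATF4, the transcription factor of the amino acid starvation response, and amino acid entry from lysosomes is sensed by the mTORC1 kinase.

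The 6 libraries held 16712568 to 22419411 gene counts. Igfbp7 had 5, 2 and 9 counts in knockout replicates 1 to 3 and 1438, 1705 and 1055 counts in wild type replicates 1 to 3, so the genotype labels and the transcript went together. On the log2 scale this is -8.05 ± 0.27 (SE, adjusted p = 6.34e-06 by edgeR's quasi-likelihood test). The 8 hepatocyte markers, led by albumin and apolipoprotein A-I genes, summed to 90989 to 116429 CPM (counts scaled to a common library size) in knockout and 83589 to 103416 CPM in wild type livers. Wild type replicate 1 stood apart in its clock genes. Its clock score, by which the average log2 CPM of clock genes peaking in the evening exceeds that of those peaking in the morning, was -0.56, against 3.10 to 3.71 in knockout replicates and 2.30 and 2.81 in the other wild type replicates. All knockout scores lay above all wild type scores. Of 9 evening genes, 6 were at an unadjusted p under 0.05, all with higher values in knockout livers. Of 5 morning genes, 3 were at that level with lower values. In these lists edgeR called 0, while DESeq2, an alternative test, called 2 morning genes lower and 0 evening genes. The clock score is therefore confounded with genotype, and in a fit that holds both their parts cannot be told apart in full. The share of reads outside genes was likewise higher in every knockout library, at 11.33% to 12.5%, than in the wild type libraries, at 9.65% to 11.30%, and its part in the results was not tested. Transcripts of all 62 genes together made up 6055 to 6921 CPM in knockout and 5198 to 6159 CPM in wild type livers, and these ranges overlapped.

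No transporter gene passed the test. At least 10 counts in 3 or more libraries were found for 31 of the 62 genes, 30 transporters and Slc7a6os, and edgeR's filter kept the same 31. With p-values adjusted over all 12522 genes tested, edgeR called 0 of the 30 transporters, where it called 27 genes or 0.216% over the whole table, 0.128% higher and 0.0878% lower in knockout livers. At an unadjusted p under 0.05 stood 4 transporters with higher and 2 with lower values in knockout livers, 6 of 30. Over all genes tested, 8.1% were at that level with higher and 7.35% with lower values, 15.4% in all. DESeq2, run as an alternative, called 4 of the 30 (Slc43a1, Slc1a2 and Slc6a9 higher, Slc7a8 lower) and 3.64% of all genes, 1.91% higher and 1.73% lower. The median log2 fold change was 0.039 over the 30 transporters and 0.0013 over all genes tested, with 17 values above 0 and 13 below. In 9 of the 30, 3 higher and 6 lower, the knockout values lay wholly outside the wild type values, which held for 20.7% of all genes tested, 10.7% higher and 10.1% lower.

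The levels of the transporters spanned more than 3 orders of magnitude when set per kilobase of exon. Slc38a3, the system N transporter that moves glutamine in and out of hepatocytes, was the highest, at 456 ± 59.0 CPM per kb in knockout and 381 ± 40.0 CPM per kb in wild type livers (SD, n = 3 each). Slc38a4, a sodium-coupled carrier of neutral amino acids, followed at 389.8 ± 48.9 CPM per kb in knockout and 332 ± 34.8 CPM per kb in wild type livers. Slc7a2, which carries arginine and lysine, came next at 104 ± 18.8 CPM per kb in knockout and 76.8 ± 16.2 CPM per kb in wild type livers, and Slc6a13, a carrier of GABA and taurine, stood at 90.9 ± 14.0 CPM per kb in knockout and 88.0 ± 4.08 CPM per kb in wild type livers. On average over the 6 libraries, 9 transporters were above 20 CPM per kb, 13 between 1 and 20, and 8 below 1. Slc38a3, Slc38a4 and Slc7a2 together took 74.3% to 77.5% of the counts of the 62 genes in knockout and 71.8% to 75.5% in wild type libraries. Lengths are those of all annotated exons joined, from GENCODE vM21, and a long untranslated exon that liver does not use lowers the value.

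**Figure D1:**
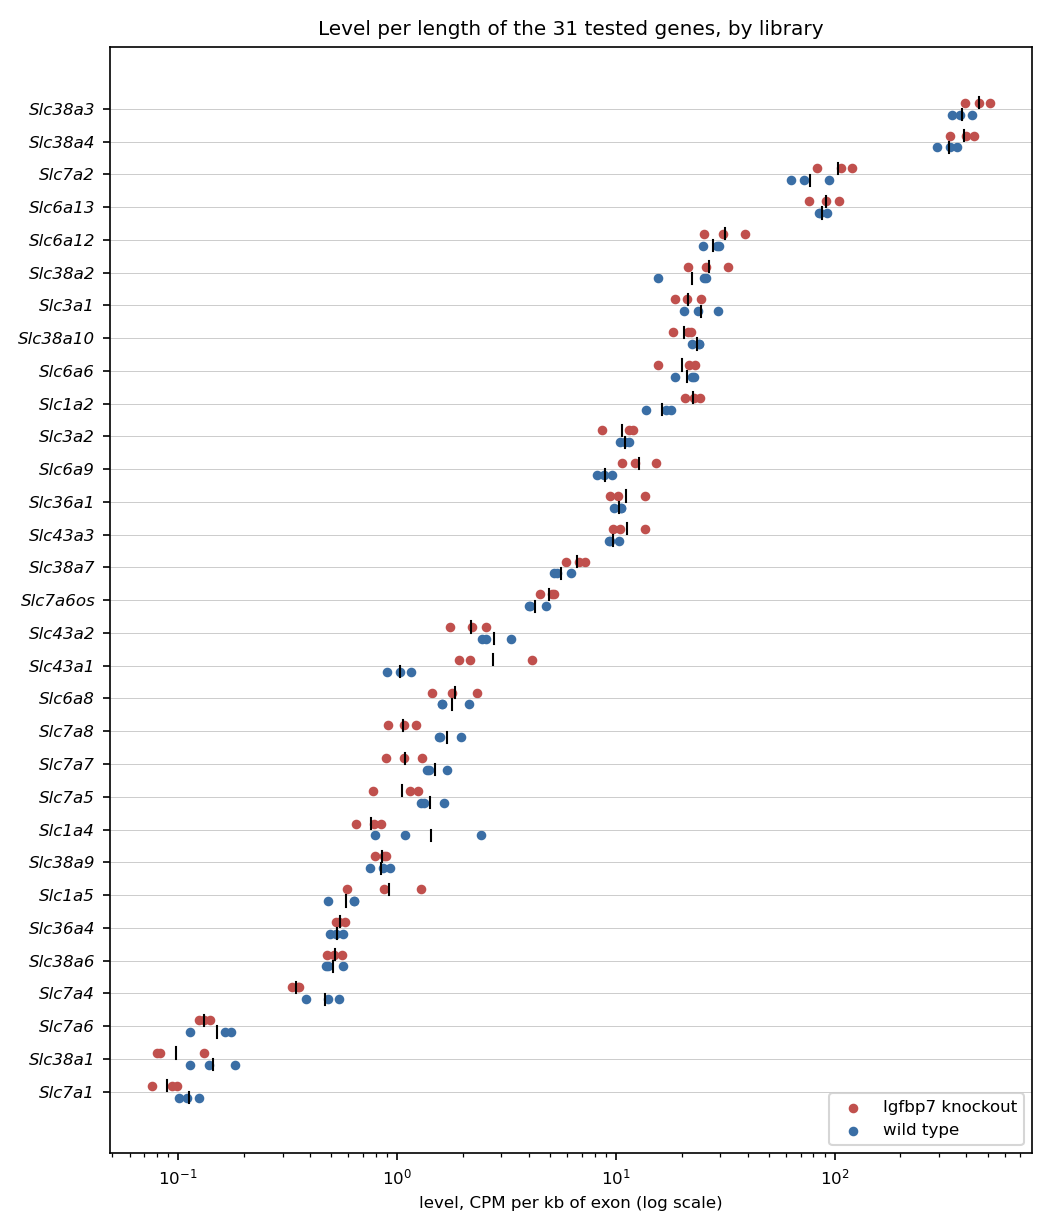
Level per length, in CPM per kb of exon on a log scale, of the 31 genes with enough counts, ordered by their mean. Each point is 1 library, knockout above wild type in each row, and the black bar is the mean of 3. Slc38a3 and Slc38a4 lie apart at the top, and for most genes the points of the groups overlap.

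The gene nearest to the threshold was Slc43a1, which encodes LAT3, a facilitated transporter of branched-chain amino acids and phenylalanine. It had 11.0, 23.7 and 12.3 CPM in knockout replicates 1 to 3, against 5.90, 6.64 and 5.14 CPM in wild type replicates 1 to 3. All knockout values lay above all wild type values, and knockout replicate 2 stood far above the other two. This is a log2 fold change of 1.40 ± 0.29 (SE). The adjusted p was 0.0837 in edgeR and 9.46e-05 in DESeq2. Without knockout replicate 2 the log2 fold change was 0.98 (edgeR adjusted p = 0.0973). Under 16 other ways of processing, it ran from 0.98 to 1.60 and passed the threshold only in DESeq2 and in edgeR without a filter. The highest edgeR adjusted p among these settings was 0.588. The other Slc43 members gave smaller values. Slc43a2, which encodes the related carrier LAT4, averaged 21.8 ± 4.0 CPM in knockout and 27.8 ± 4.73 CPM in wild type livers (SD, n = 3 each), or -0.35 ± 0.17 (SE) as a log2 fold change. With 1 library left out this change ran from -0.48 to -0.20. It was -0.20 without wild type replicate 3 and -0.22 without knockout replicate 1. Slc43a3, known as a transporter of purine nucleobases rather than amino acids, was at 50.3 ± 9.27 CPM in knockout and 43.4 ± 2.57 CPM in wild type livers.

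The stretch before the start of Slc43a1 is shown because this gene had the lowest p of the family. It is the 250 bases upstream of the RefSeq start, chr2:84840073-84840322 on the plus strand of GRCm38.p6, with an E-box, the letters CACGTG to which CLOCK and ARNTL bind, in capitals.
Slc43a1: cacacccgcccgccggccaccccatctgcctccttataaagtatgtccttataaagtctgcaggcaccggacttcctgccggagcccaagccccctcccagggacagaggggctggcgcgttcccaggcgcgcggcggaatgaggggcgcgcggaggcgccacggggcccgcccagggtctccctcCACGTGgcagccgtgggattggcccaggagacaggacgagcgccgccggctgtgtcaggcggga
The motif began at position -64 from the start. RefSeq windows of 300 bases, from 250 before to 50 after a start, were found for 22 of the 31 tested genes, 39 windows in all. CACGTG, which reads the same on both strands, was in 7.69% of them and in 7.15% of the 32851 windows of all genes. Slc36a1 and Slc38a7 held the other matches. TGATGNAA, the core of the amino acid response element to which ATF4 binds, was searched on both strands. It was in 3 of the 39 windows of tested members (7.69%), from 2 genes, and in 3.97% of all windows. The 2 members that held it are shown as 30 bases around each match, on the strand of the gene and with the match in capitals.
Slc1a4: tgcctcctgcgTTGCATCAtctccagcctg
Slc7a7: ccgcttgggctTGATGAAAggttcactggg
Slc7a7: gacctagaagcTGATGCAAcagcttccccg
The Slc1a4 match, read on the opposite strand, began at position -4, at chr11:20332699-20332728. The Slc7a7 matches lie at chr14:54418067-54418096 and chr14:54417927-54417956. The second lies in the windows of 2 annotated starts, so the same site counts in 2 of the windows. None of the 22 tested members with a window held both motifs, and a match in the letters is no measure of binding.

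Of the 7 Slc1 genes, 3 had enough counts and edgeR called 0. Slc1a2 encodes GLT-1, the high-affinity glutamate transporter of the pericentral hepatocytes that make glutamine. It had 272, 298 and 319.9 CPM in knockout replicates 1 to 3, against 181, 235 and 224 CPM in wild type replicates 1 to 3. No value of one group reached the other, and wild type replicate 1 was the lowest. This is a log2 fold change of 0.48 ± 0.12 (SE), with adjusted p-values of 0.134 in edgeR and 0.0189 in DESeq2. It was 0.28 (edgeR adjusted p = 0.744) once the clock score was added to the fit, and 0.37 to 0.55 with 1 library left out. Of 10 pericentral markers, 3 were at an unadjusted p under 0.05, all with higher values in knockout livers, against 8.1% of all genes tested. Here edgeR called 0 and DESeq2 called 1 higher. Over the list, 6 log2 fold changes were above 0 and 4 below, at a median of 0.058. The list summed to 11588 to 16533 CPM in knockout and 10016 to 10967 CPM in wild type livers with no marker at 0. Cyp2e1, an ethanol-oxidizing cytochrome P450, made up most of that sum, at 9249 ± 2040 CPM in knockout and 6264 ± 200.3 CPM in wild type livers (SD, n = 3 each). Cyp2e1 and Axin2, a Wnt target, had the lowest p of the list, with log2 fold changes of 0.56 ± 0.19 and 0.52 ± 0.19 (SE). The part of pericentral cells in the Slc1a2 values was not tested. In bulk tissue, fewer or more cells of a type cannot be told apart from less or more RNA per cell.

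Slc1a4 encodes ASCT1, an exchanger of serine, alanine and cysteine. It had 2.56, 3.33 and 3.09 CPM in knockout replicates 1 to 3, against 9.46, 4.26 and 3.12 CPM in wild type replicates 1 to 3. The groups overlapped, and wild type replicate 1, the library that stood apart in its clock genes, stood far above the rest. The log2 fold change was -0.91 ± 0.38 (SE, edgeR adjusted p = 0.305), -0.31 without wild type replicate 1, and 0.057 with the clock score as a covariate. Slc1a5, which encodes the glutamine exchanger ASCT2, had 3.65, 2.46 and 5.35 CPM in knockout replicates and 2.66, 2.01 and 2.66 CPM in wild type replicates. This is 0.65 ± 0.29 on the log2 scale (SE, edgeR adjusted p = 0.333). With 1 library left out, Slc1a5 ran from 0.33 (without knockout replicate 3) to 0.89. Its groups overlapped through knockout replicate 2. The other Slc1 genes, Slc1a1, Slc1a3, Slc1a6 and Slc1a7, had at most 10 counts in any library.

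**Figure D2:**
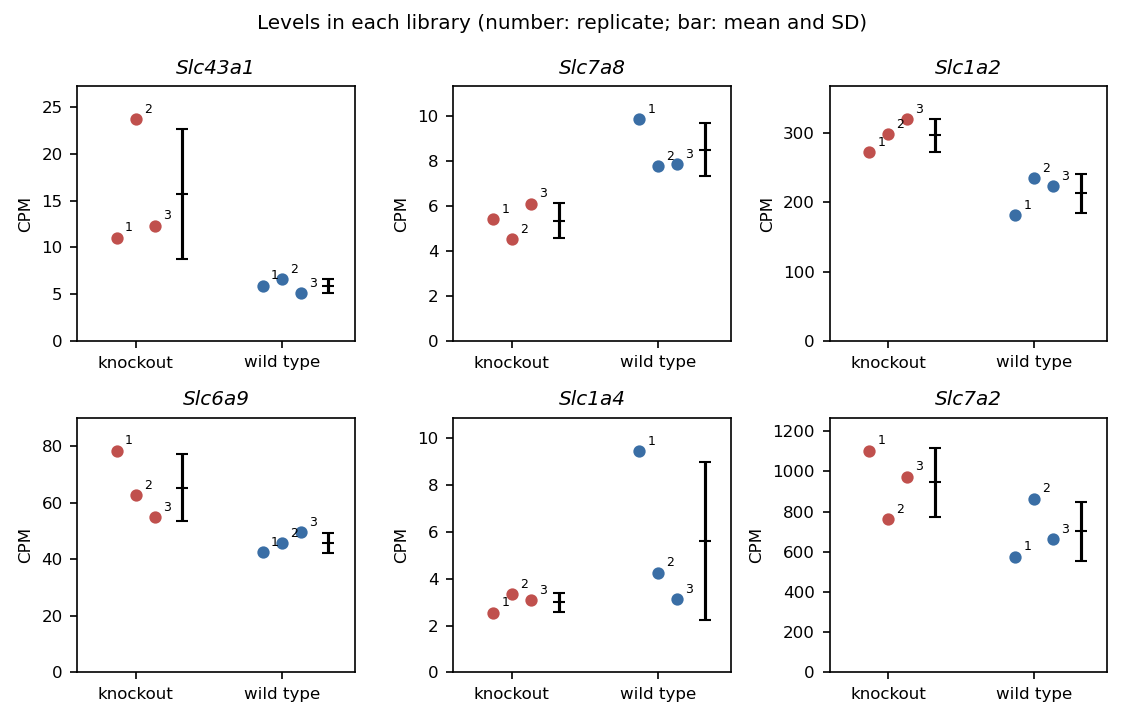
CPM in each library of the 6 transporters at an unadjusted p under 0.05, in order of p, knockout left of wild type. Points are libraries with their replicate number and the bar is the mean with its SD. In Slc43a1, Slc7a8, Slc1a2 and Slc6a9 the groups do not overlap, while Slc1a4 shows wild type replicate 1 alone at 9.46 CPM.

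Of the 10 light chain genes of the heteromeric exchangers, 4 had enough counts, and 0 were called by edgeR and 1 by DESeq2. At an unadjusted p under 0.05 stood 1 of the 4, Slc7a8. These 4 had a negative log2 fold change, at a median of -0.43, and 3 had groups that did not overlap. Over all genes tested, knockout values lay wholly below wild type values in 10.1%, and DESeq2 called 1.73% lower. Slc7a8, which encodes LAT2, an exchanger of neutral amino acids, had 5.40, 4.53 and 6.09 CPM in knockout replicates 1 to 3, against 9.83, 7.76 and 7.85 CPM in wild type replicates 1 to 3. Its highest knockout value stayed below its lowest wild type value, and the log2 fold change of -0.66 ± 0.17 (SE) had adjusted p-values of 0.134 in edgeR and 0.0396 in DESeq2. Under 16 other ways of processing, this change ran from -0.77 to -0.44 and passed the threshold only in DESeq2. Slc7a7, whose product y+LAT1 exports cationic amino acids in exchange for neutral ones, averaged 3.61 ± 0.68 CPM in knockout and 4.92 ± 0.59 CPM in wild type livers (SD, n = 3 each). Slc7a5, the gene for the leucine exchanger LAT1, averaged 3.92 ± 0.91 CPM in knockout and 5.25 ± 0.70 CPM in wild type livers. Slc7a6, the gene for y+LAT2, lay just inside the count limit, with 12, 11 and 13 counts in knockout and 15, 16 and 9 counts in wild type replicates, and its log2 fold change of -0.20 ± 0.31 (SE) was 0.020 with the clock score in the fit. Among the light chains too scarce for a test, Slc7a15 averaged 0.434 CPM in knockout and 0.262 CPM in wild type livers, and Slc7a11 0.0989 CPM in knockout and 0.0681 CPM in wild type livers.

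Slc3a2, which encodes CD98hc, the heavy chain that carries these 4 light chains to the surface, had 42.4, 30.7 and 40.4 CPM in knockout replicates and 40.3, 39.0 and 37.1 CPM in wild type replicates, or -0.036 ± 0.13 (SE) on the log2 scale. Its wild type values lay within the knockout range. Slc3a1, which encodes rBAT, the heavy chain of the cystine transporter of kidney and gut, averaged 48.6 ± 6.57 CPM in knockout and 55.6 ± 10.1 CPM in wild type livers. Its light chain partners were nearly absent from the same libraries. Slc7a9 had 0 counts in each knockout library and 0, 1 and 1 counts in wild type replicates 1 to 3, and Slc7a13 had 0 in each of the 6. Slc3a1 shares exon sequence with Prepl on the opposite strand in GENCODE vM21, and Slc7a7 likewise with Oxa1l, so reads of these pairs may not be separated where the counting ignored strand. Slc1a2, Slc7a2, Slc6a6, Slc38a9, Slc38a10 and Slc43a2 overlap opposite-strand genes that are not among the genes counted. Reads of those genes may then be counted with the transporter.

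Markers of some other liver cells had lower values in these knockout libraries, while those of others went both ways. Over all genes tested, 7.35% were at an unadjusted p under 0.05 with lower values, and DESeq2 called 1.73% lower. Of 12 Kupffer cell and macrophage markers, DESeq2 called 10 and edgeR called 0, while 12 had an unadjusted p under 0.05, all with lower values, at a median log2 fold change of -0.71. They summed to 363 to 569 CPM in knockout and 689.6 to 777 CPM in wild type livers, and no marker was at 0. C1qb, a complement subunit made by macrophages, was at 39.8 ± 5.67 CPM in knockout and 67.0 ± 7.74 CPM in wild type livers (SD, n = 3 each). Of 12 markers of T, NK and B cells, 8 had enough counts, with lower values in all 8 and 3 at an unadjusted p under 0.05, and 0 were called by edgeR or by DESeq2. The list summed to 5.11 to 7.53 CPM in knockout and 9.87 to 12.2 CPM in wild type livers. Of 8 cholangiocyte markers, 6 had enough counts, all 6 with negative log2 fold changes at a median of -0.34 and 1 at an unadjusted p under 0.05, and edgeR called 0 and DESeq2 1. They summed to 65.3 to 77.1 CPM in knockout and 94.2 to 125 CPM in wild type livers, and no marker was at 0. The marker at that level, Spp1, which encodes osteopontin, was at 48.1 ± 5.34 CPM in knockout and 85.1 ± 13.1 CPM in wild type livers. Of 11 liver endothelial cell markers, 5 had log2 fold changes above 0 and 6 below, at a median of -0.048. Of 10 hepatic stellate cell markers, 4 were above 0 and 6 below, at a median of -0.15. Of 10 periportal hepatocyte markers, 5 were above 0 and 5 below, at a median of 0.023. Each of these lists had 1 marker at an unadjusted p under 0.05, with a lower value, and edgeR and DESeq2 called 0. The part of any of these cell types in the transporter values was not tested.

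Of 5 cationic transporter genes, 3 had enough counts and edgeR and DESeq2 called 0. Slc7a2 encodes CAT2, the main arginine carrier of hepatocytes. It had 1102, 763 and 973 CPM in knockout replicates 1 to 3, against 576, 865 and 664 CPM in wild type replicates 1 to 3. Knockout replicate 2 lay below wild type replicate 2, so the groups overlapped. The log2 fold change was 0.43 ± 0.18 (SE, edgeR adjusted p = 0.314), 0.28 with the clock score as a covariate, and 0.31 to 0.60 with 1 library left out. Slc7a1, the gene for the widely expressed carrier CAT1, averaged 1.03 ± 0.14 CPM in knockout and 1.29 ± 0.13 CPM in wild type livers (SD, n = 3 each). Slc7a4, a relative without an assigned substrate, averaged 1.44 ± 0.06 CPM in knockout and 1.95 ± 0.33 CPM in wild type livers. In both the knockout values lay below the wild type values, with 31 counts at most in a knockout library, and neither was at an unadjusted p under 0.05. Slc7a4 shares exon sequence with P2rx6 on the opposite strand. Slc7a3 and Slc7a14 had at most 1 count in any library.

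Of the Slc6 family only carriers of glycine, taurine, betaine, GABA and creatine had enough counts, 5 of 19 genes. Slc6a9 encodes GlyT1, a glycine transporter. It had 78.3, 62.6 and 54.9 CPM in knockout replicates 1 to 3, against 42.4, 45.6 and 49.5 CPM in wild type replicates 1 to 3. The groups did not overlap, and knockout replicate 3 was nearest to the wild type livers. This is 0.51 ± 0.14 (SE) on the log2 scale, with adjusted p-values of 0.139 in edgeR and 0.0375 in DESeq2. Under 16 other ways of processing, the change ran from 0.36 to 0.62 and passed the threshold only in DESeq2. Slc6a9 shares exon sequence with B4galt2 and Ccdc24 on the opposite strand in GENCODE vM21. The other 4 had log2 fold changes from -0.086 to 0.18 and overlapping groups. Slc6a13 averaged 264 ± 40.7 CPM in knockout and 255 ± 11.8 CPM in wild type livers (SD, n = 3 each). Slc6a6, the gene for the taurine transporter, averaged 169 ± 32.9 CPM in knockout and 180 ± 19.3 CPM in wild type livers. Slc6a12, the gene for the betaine and GABA carrier BGT1, averaged 96.8 ± 21.0 CPM in knockout and 85.2 ± 7.55 CPM in wild type livers. Slc6a8, the gene for the creatine transporter, averaged 9.63 ± 2.29 CPM in knockout and 9.28 ± 1.60 CPM in wild type livers.

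The Slc38 family held the most abundant members, and 8 of its 11 genes had enough counts, 0 of them at an unadjusted p under 0.05. Slc38a3 had 2421, 2709 and 2087 CPM in knockout replicates 1 to 3, against 1823, 2238 and 1965 CPM in wild type replicates 1 to 3, or 0.26 ± 0.15 on the log2 scale (SE, edgeR adjusted p = 0.439). Slc38a4 had 1697, 1849 and 1437 CPM in knockout replicates, against 1438, 1549 and 1255 CPM in wild type replicates, or 0.23 ± 0.14 on the log2 scale (SE, edgeR adjusted p = 0.480). Without knockout replicate 2 the log2 fold changes were 0.17 for Slc38a3 and 0.15 for Slc38a4, and without wild type replicate 3 Slc38a4 was also at 0.15. The highest values with 1 library left out were 0.35 for Slc38a3 and 0.33 for Slc38a4. In both genes knockout replicate 3 lay within the wild type range and knockout replicate 2 was the highest of all. Slc38a2 encodes SNAT2, a system A transporter induced by amino acid starvation. It had 289, 228 and 189 CPM in knockout replicates, against 138, 225 and 229 CPM in wild type replicates. Its log2 fold change of 0.26 ± 0.21 (SE) became -0.084 with the clock score as a covariate, 0.053 without wild type replicate 1 and 0.080 without knockout replicate 1. The highest value with 1 library left out was 0.39. Slc38a10, a broadly expressed and less studied member, averaged 132 ± 12.9 CPM in knockout and 150 ± 6.13 CPM in wild type livers (SD, n = 3 each), with groups that did not overlap. Slc38a1, the gene for the system A transporter SNAT1, averaged 1.68 ± 0.50 CPM in knockout and 2.49 ± 0.60 CPM in wild type livers, and its groups overlapped.

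Transporters known from lysosomes, and the remaining members, had overlapping groups. Slc38a9, which encodes the lysosomal arginine sensor of mTORC1, averaged 14.2 ± 0.91 CPM in knockout and 14.2 ± 1.46 CPM in wild type livers (SD, n = 3 each), or 0.0091 ± 0.12 (SE) on the log2 scale. Slc38a7, the gene for a lysosomal carrier of glutamine and asparagine, averaged 27.5 ± 2.70 CPM in knockout and 23.3 ± 2.33 CPM in wild type livers. Slc36a1, the gene for the proton-coupled carrier PAT1, averaged 62.4 ± 12.7 CPM in knockout and 57.9 ± 2.50 CPM in wild type livers, and knockout replicate 2 was the highest at 76.8 CPM. Slc36a4 averaged 3.59 ± 0.16 CPM in knockout and 3.47 ± 0.23 CPM in wild type livers, and Slc38a6 4.04 ± 0.32 CPM in knockout and 3.95 ± 0.40 CPM in wild type livers. Slc7a6os, the neighbour gene that is no transporter, averaged 20.9 ± 1.64 CPM in knockout and 18.0 ± 1.82 CPM in wild type livers, also with overlap.

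**Figure D3:**
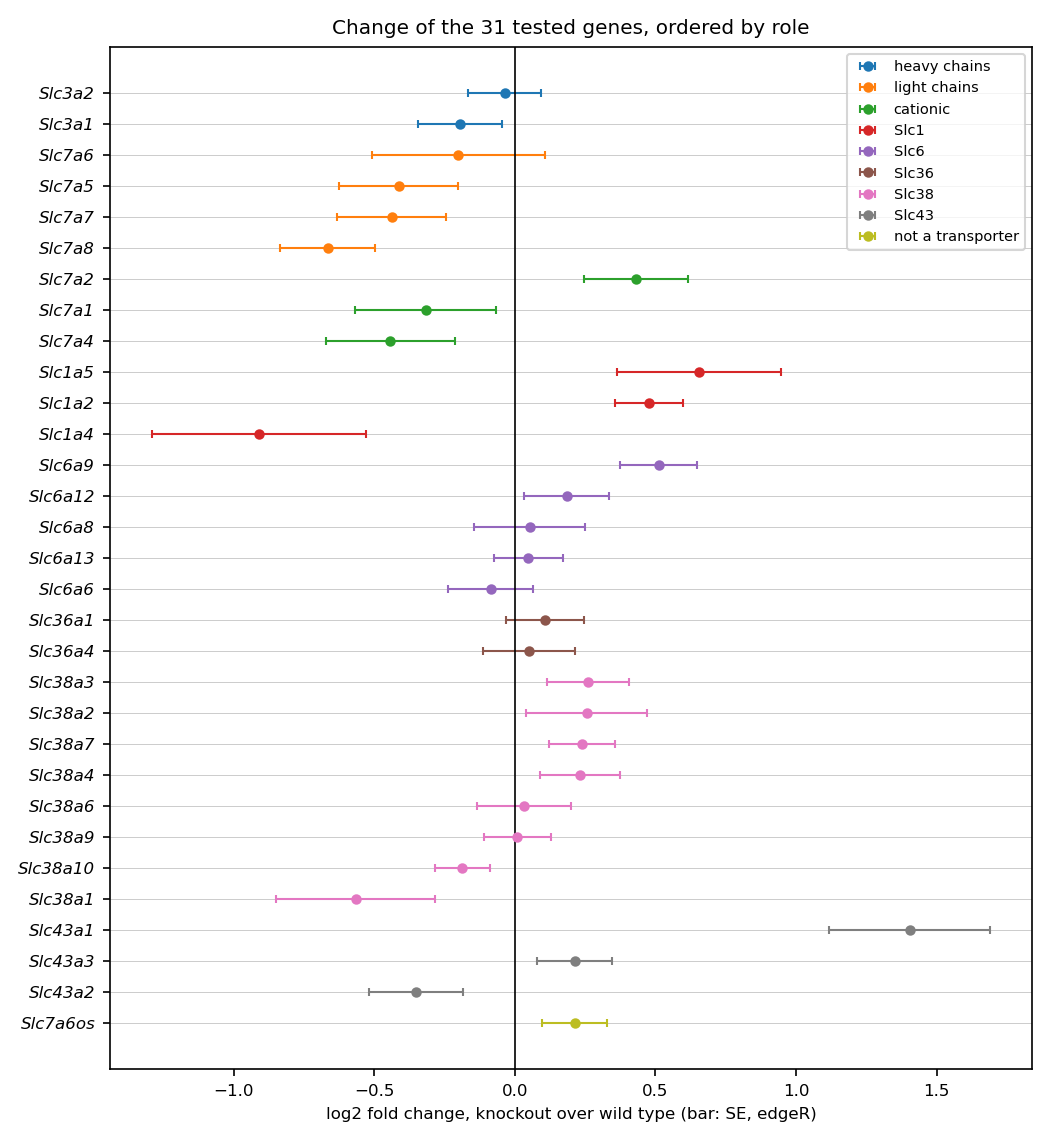
Log2 fold change of knockout over wild type for the 31 tested genes, grouped by role, with the SE from edgeR as bars. The 4 tested light chains lie left of 0 and Slc43a1 lies farthest right, at 1.40. None of the 31 passed the threshold over all genes.

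The other 31 genes had too few counts for a test. Of these, 11 had no count in any of the 6 libraries (Slc36a2, Slc36a3, Slc38a8, Slc6a3, Slc6a5, Slc6a11, Slc6a14, Slc6a15, Slc6a18, Slc7a12 and Slc7a13). A count of 0 allows up to 3 counts, or 0.142 to 0.164 CPM in a knockout and 0.140 to 0.173 CPM in a wild type library, for counting error only. A further 14 had some reads but at most 3 counts in any library. Slc7a11, which encodes xCT, the cystine and glutamate exchanger induced by oxidative stress and ATF4, was among them with 2, 1 and 3 counts in knockout and 1, 2 and 1 counts in wild type replicates. Also among them were Slc1a1, Slc1a6, Slc1a7, Slc38a5, Slc6a2, Slc6a17, Slc6a19, Slc6a20a, Slc6a20b, Slc7a3, Slc7a9 and Slc7a14. The remaining 6 reached more than 3 counts in some library. Slc1a3, the gene for the glutamate transporter GLAST, lay just outside the limit, with 5, 1 and 5 counts in knockout and 10, 9 and 9 counts in wild type replicates. Slc7a15, a light chain relative, had 5, 15 and 5 counts in knockout and 8, 4 and 3 counts in wild type replicates. Slc38a11, Slc6a4, Slc6a7 and Slc7a10 ranged from 0 to 12 counts.

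Other genes of amino acid handling gave 0 calls by edgeR in each of 6 lists. For comparison, 8.1% of all genes tested were at an unadjusted p under 0.05 with higher and 7.35% with lower values, 15.4% in all. DESeq2 called 3.64% of all genes. Of 28 tested ATF4 and amino acid response genes, 1 was at an unadjusted p under 0.05 with a higher and 4 with a lower value, at a median log2 fold change of -0.092, and DESeq2 called 0. Aldh18a1, the first enzyme of proline synthesis, had -1.08 ± 0.32 (SE), and Gpt2, the mitochondrial alanine aminotransferase, 0.52 ± 0.17 (SE). Of 27 tested genes of lysosomal amino acid sensing, 2 were at that level with higher and 1 with lower values, and DESeq2 called 1. Fnip1, a partner of folliculin in Rag GTPase control, was at 69.2 ± 6.09 CPM in knockout and 46.1 ± 5.85 CPM in wild type livers (SD, n = 3 each, edgeR adjusted p = 0.0804), and Gatsl2, now named Castor2, had a log2 fold change of -0.72 ± 0.26 (SE). The 41 amino acid catabolic enzymes had 8 with higher and 1 with a lower value at that level, at a median log2 fold change of 0.096, and DESeq2 called 2 higher. Bcat2, the mitochondrial branched-chain aminotransferase, was at 41.6 ± 7.57 CPM in knockout and 25.9 ± 2.84 CPM in wild type livers (edgeR adjusted p = 0.0933), and Mat1a, which makes S-adenosylmethionine, at 3711 ± 825 CPM in knockout and 2287 ± 446 CPM in wild type livers (edgeR adjusted p = 0.175).

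The 8 tested mitochondrial amino acid carriers had 1 gene with an unadjusted p below 0.05, while DESeq2 called 0. This was Slc25a29, a carrier of basic amino acids, at a log2 fold change of 0.78 ± 0.27 (SE), while Slc25a13, the aspartate and glutamate carrier citrin, had 0.16 ± 0.09 (SE). Of 11 tested partners and regulators of transporter surface level, 0 had higher and 2 had lower values at that level, and DESeq2 called 1 lower. Cd44, a surface glycoprotein that stabilizes xCT in tumour cells and is abundant on leukocytes, had -0.74 ± 0.17 (SE), and Nedd4l, a ubiquitin ligase, -0.46 ± 0.18 (SE). Of 6 other amino acid and peptide transporters, 2 had higher and 1 a lower value at that level, and DESeq2 called 1 lower. Slc15a3 and Slc15a4, carriers of histidine and dipeptides in endosomes and lysosomes, had -0.80 ± 0.20 and 0.40 ± 0.12 (SE).

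**Figure D4:**
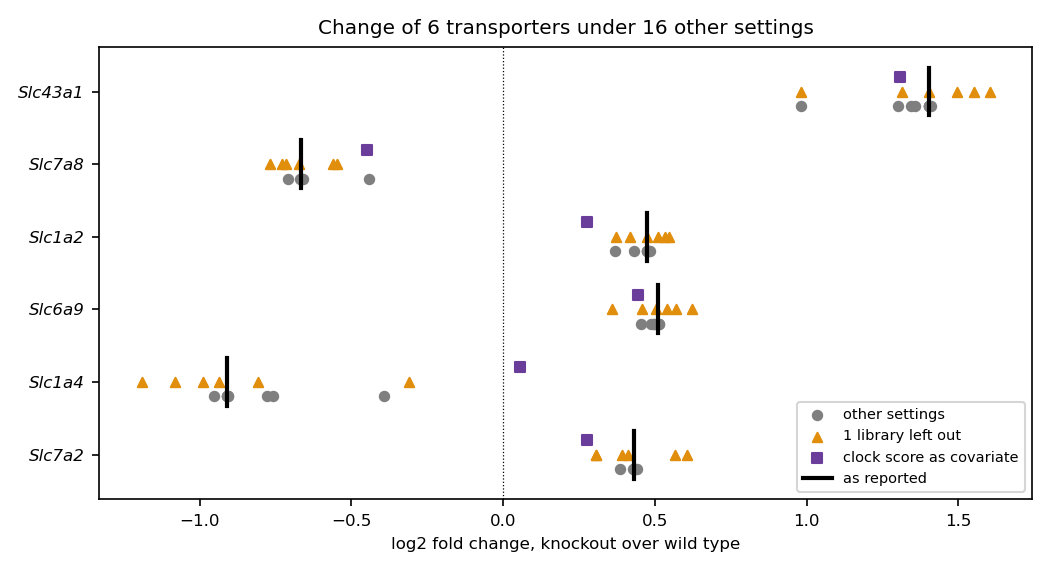
Log2 fold change of knockout over wild type of the 6 transporters at an unadjusted p under 0.05, as reported (black line) and under 16 other ways of processing. Triangles leave out 1 library, squares take the clock score as a covariate and grey points are the rest. Slc1a4 spans from -1.19 to 0.057, while the other 5 stay on 1 side of 0.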

How the data were processed

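The authors deposited 1 file per library with whole-number read counts per gene symbol and no normalization. Per the submitters' processing notes, CASAVA 1.8.2, TopHat2 2.0.8b and HTSeq were used, with the builds mm9 and hg19 named without a role. The version of HTSeq, its annotation and whether it used strand were not stated (not given in the sources used here). The 5 rows that name no gene were left out. Reads outside genes made up 11.3% to 12.5% of uniquely placed reads in knockout and 9.65% to 11.3% in wild type libraries, and reads fitting several genes 0.594% to 0.662%.

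Tests used edgeR 4.0.16 (R 4.3.3): filterByExpr (minimum count 10), TMM scaling, a quasi-likelihood fit with genotype as its only term, and Benjamini-Hochberg adjustment over the 12522 genes kept, with a threshold of 0.05. SEs come from the F statistic. CPM use TMM-scaled library sizes. Alternatives were other scalings and filters, DESeq2 1.42.0, limma-voom (limma 3.58.1), robust estimation, a replicate block, a clock score, and libraries left out. The test was checked on counts simulated independently from each gene's fitted spread, with no clock difference between libraries. There it called 21.8% of true 1.5-fold, 72.9% of 2-fold and 100% of 4-fold changes. These shares may not hold for the real libraries. The clock gene Gm129 was not called at a log2 fold change of 2.35 ± 0.57 (SE, edgeR adjusted p = 0.121). A gene not called may therefore still have changed, by more than 2-fold as well as by less. The members and lists were chosen with earlier results of these data known. Named genes were members at an unadjusted p under 0.05, the highest of each family, heavy chains and a set of liver transporters. Of each list of amino acid handling, the 2 genes with the lowest p were named. Of the marker lists only some genes were named, and neutrophil and erythroid markers are not reported here. All other members were accounted for by name, count or range. Not every member is reported here by name.

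Lengths and overlaps come from GENCODE vM21 (all 62 genes matched) and promoters from RefSeq, both on GRCm38, while the notes name other builds.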

Additional observations from a re-analysis of the deposited data

How the results depend on the processing

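Igfbp7 kept its direction and its call under all 16 alternatives. The median log2 fold change of the 30 transporters was -0.017 to 0.051 with 1 library left out. Transporters called by edgeR numbered 0 in each of those 6 fits, 1 without a filter (Slc43a1) and 4 by DESeq2, and those at an unadjusted p under 0.05 numbered 5 to 11, the highest without knockout replicate 3. Calls over all genes were 27 as reported, 3 to 36 with 1 library left out, 133 without a filter, 438 by DESeq2, 68 with robust estimation, 1 with the clock score and 1 with wild type replicate 1 and knockout replicate 2 both left out. Samples with the same replicate number did not deviate together (correlations of -0.0827, -0.098 and -0.0413), and no sample correlated best with its own number. The replicate block left 1 gene called over all genes, 0 of the 30 transporters called and 6 at an unadjusted p under 0.05.

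Besides Slc1a4, at -0.91 as reported, some log2 fold changes between -0.20 and 0.26 changed sign under other settings, none with an adjusted p under 0.05. Other members in that range, such as Slc38a4 and Slc38a10, kept their direction in all 16. With library totals only, Slc38a6 was at -0.018, Slc38a9 at -0.038 and Slc6a13 at -0.0018. With the clock score, Slc1a4 was at 0.057, Slc36a4 at -0.048, Slc38a2 at -0.084, Slc38a9 at -0.0092, Slc3a1 at 0.067, Slc3a2 at 0.055 and Slc7a6 at 0.020. With wild type replicate 1 and knockout replicate 2 left out, Slc36a1 was at -0.054, Slc36a4 at -0.032, Slc38a9 at -0.014, Slc3a1 at 0.044 and Slc3a2 at 0.12. With 1 library left out, Slc6a13 ran from -0.067 to 0.16, Slc6a8 from -0.14 to 0.20, Slc36a1 from -0.070 to 0.21, Slc38a6 from -0.026 to 0.12, Slc38a9 from -0.073 to 0.079, Slc3a2 from -0.13 to 0.094 and Slc6a6 from -0.19 to 0.065. The cause was not tested. Depth limits the members under about 2 CPM, where a library holds few counts.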
